A study of Bos grunniens with 6 samples.

Results

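The genes described here code for receptors that hold cells to the extracellular matrix and for the matrix proteins these receptors bind. They are the rows of the deposited table that carry the pathway label ECM-receptor interaction, less the rows with the annotation term for collagen-containing extracellular matrix and less ITGA8 and 7 named collagen genes. Of 72 rows with the pathway label 15 were left out for that term and 6 more by name, so 51 of 15646 rows remained, which stand for 50 genes because dystroglycan (DAG1) has 2 rows. They comprise 12 integrin alpha chains, 5 integrin beta chains, 13 rows of other receptors, 3 laminin chains, 5 collagen chains and 13 other ligands. In the text a current symbol is followed by the table's own symbol in parentheses where the table uses another one, as it does for 19 of the 51 rows.

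RNA was sequenced from cultured cells of wild-type yak (Bos grunniens) skin, 3 cultures labelled as dermal papilla cells (DPC) and as many labelled as hair matrix cells (HMC). Dermal papilla cells form the mesenchymal core of the follicle bulb, and hair matrix cells are the epithelial cells that surround them and build the hair. All 6 cultures grew in DMEM/F12 with 10% serum, IGF1 at 10 ng/mL, EGF at 20 ng/mL and antibiotics; serum itself carries fibronectin and vitronectin. The labels call the cultures biological replicates and do not say whether they came from separate animals, so p-values measure the spread between these cultures.

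An integrin is a pair of an alpha and a beta chain, and the pair decides which ligand it binds: laminin, collagen, or proteins such as fibronectin that carry an RGD motif. In skin, basal epithelial cells sit on a basement membrane through laminin-binding integrins anchored in hemidesmosomes, whereas dermal cells are embedded in fibrillar matrix and use collagen-binding and fibronectin-binding integrins. Syndecans, dystroglycan, CD44, CD47 and CD36 are further receptors for matrix proteins and polysaccharides.

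The whole reads recovered from the table, which are lower bounds, numbered 13098760 to 13382123 per DPC library and 13694761 to 13999664 per HMC library. On the second principal component of log2(FPKM + 1), which held 0.770% of the variance, HMC replicate 3 lay at 13.9 against -9.32 and -4.28 for the other HMC libraries, so counts are also given without it. FPKM is a read count scaled to gene length and library size, so levels can be compared between genes. All 6 mesenchymal markers checked, among them COL1A1 and VIM, were higher in DPC and all 6 epithelial markers were higher in HMC. Of the epithelial markers KRT19 and KRT8 were the highest in HMC, at 4090 and 3352 FPKM, with KRT5 at 1083 FPKM and CDH1 at 195 FPKM. No marker specific to the hair matrix was among them.

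Setting DPC against HMC shows which matrix receptors and ligands differ in mRNA between these cultured mesenchymal and epithelial cells. HMC had more mRNA of the laminin-binding integrin chains ITGA3, ITGA6, ITGA7 and ITGB4, of the epithelial chain ITGB6, of the laminin chain LAMB3 and of the ligands osteopontin (SPP1) and agrin (AGRN). DPC had more mRNA of the fibronectin receptor chain ITGA5, the collagen receptor chains ITGA1 and ITGA11, ITGA4, and the matricellular proteins tenascin C (TNC) and thrombospondin 2 (THBS2). Fibronectin itself (FN1) was abundant in both cell types and differed by a factor of 1.23. The differences reached a log2 value of -7.39 for SPP1 on the HMC side and 5.51 for THBS2 on the DPC side, on the log2(FPKM + 1) scale in which every difference below is given as DPC minus HMC. With 0.1 FPKM added in place of 1 the ends were ITGB6 at -8.90 and ITGA4 at 6.44, and with voom on the recovered reads ITGB6 at -9.41 and ITGA4 at 8.20.

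Of the 51 rows, 35 averaged 0.5 FPKM or more across the 6 cultures and were tested, and 32 of these passed an adjusted p of 0.05 in limma fitted across all 11883 tested genes. That is 91.4%, against a background of 75.9% of all tested genes. Of the 32, 10 were higher in DPC and 22 in HMC, where the background was 29.7% and 46.2% of tested genes. On the log2(FPKM + 1) scale a difference of at least 2-fold was found for 26 members, or 74.3% against a background of 27.1%. Of these, 9 were higher in DPC (background 11.0%) and 17 in HMC (background 16.1%). A difference of at least 4 on that scale, or 16-fold, was found for 11 members, or 31.4% against 3.35%. The added 1 FPKM shrinks the differences of low genes: by the plain ratio of mean FPKM 16 members differed at least 16-fold, or 45.7% against 10.1%, and the further 5 were ITGA4, CD36, COL2A1, ITGB7 and ITGA1. The median of the absolute log2 differences was 2.07 over the tested members and 0.50 over all tested genes, and the medians of the signed values were -0.78 and -0.15. The values of the groups did not overlap for 32 tested members, or 91.4% against a background of 77.9%. The adjusted p of the members that passed was at most 0.0112. The share of calls that were higher in DPC, over all genes, was 39.1%, but 49.2% after median-of-ratios scaling and 53.8% after quantile normalization, under which the members counted 11 higher in DPC and 21 in HMC, and 11 and 20. Without HMC replicate 3 the counts were 11 higher in DPC and 23 in HMC, of 36 tested. Fewer cells of a type and less RNA per cell cannot be told apart in such bulk samples.

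**Figure D1:**
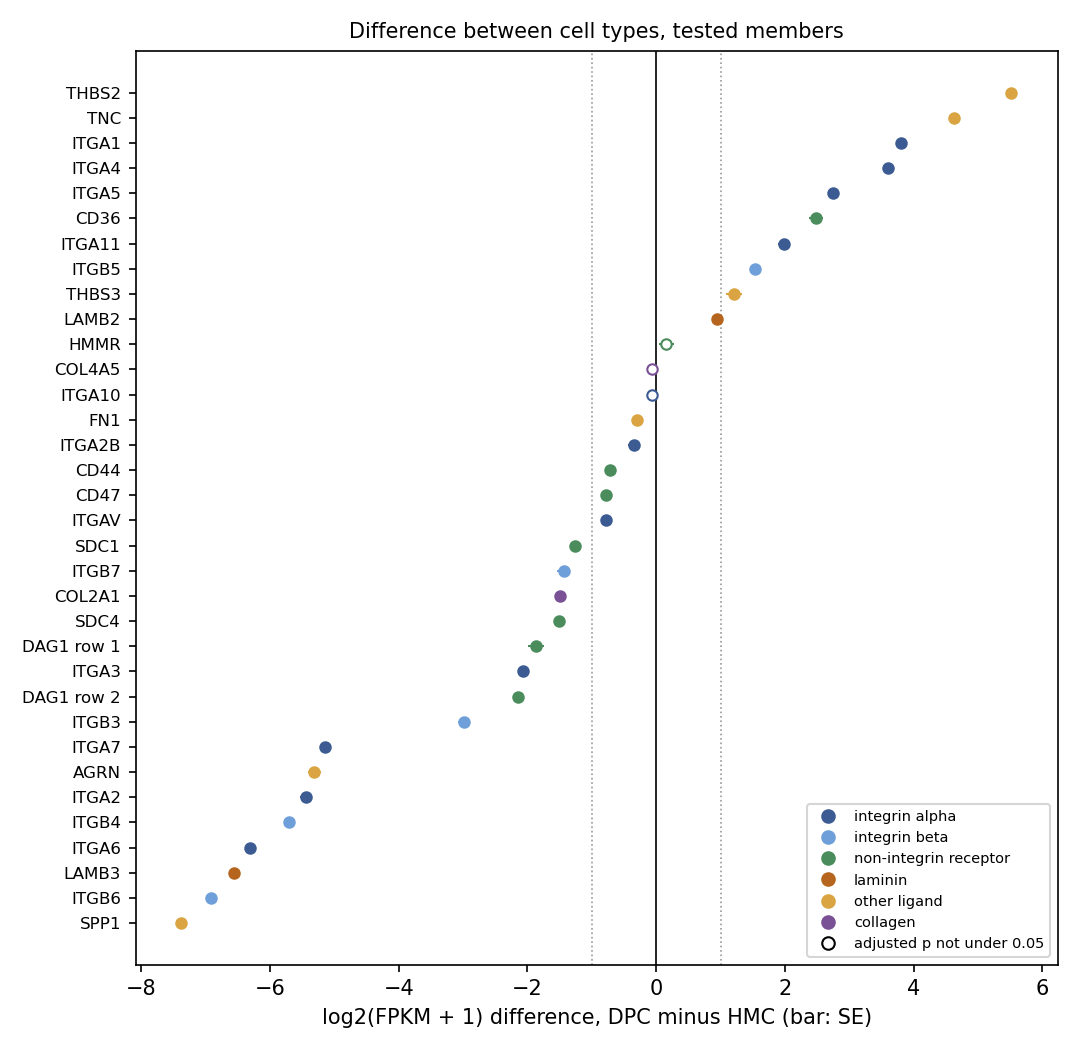
Differences in log2(FPKM + 1) between the cell types for the tested members the text reports, ordered by size, with DPC-high genes to the right. Points are coloured by class, bars are standard errors from limma, open points did not pass the adjusted p of 0.05, and dotted lines mark a 2-fold difference. SPP1 at -7.39 and THBS2 at 5.51 form the ends of the range on this scale, and 3 members near 0 are open.

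Of the 11 alpha chains tested, 6 were higher in HMC, 4 in DPC and 1 did not pass. The background was 46.2% of all tested genes higher in HMC and 29.7% in DPC. The 3 alpha chains best known as laminin receptors, ITGA3, ITGA6 and ITGA7, were higher in HMC. ITGA6, the alpha chain of the hemidesmosome integrin, stood at 193, 192 and 193 FPKM in the HMC cultures and 1.40, 1.57 and 1.37 FPKM in the DPC cultures. Its values were nearly the same in the HMC cultures and lay far above every DPC value, with a log2 difference of -6.31 (SE 0.055, limma adjusted p = 4.83e-11). ITGA3, which pairs with the beta 1 chain as a laminin receptor of basal keratinocytes, was the most abundant alpha chain over all cultures, at 298, 289 and 286 FPKM in the HMC cultures and 67.2, 69.3 and 68.5 FPKM in the DPC cultures. It was thus present in both cell types, with no overlap and a log2 difference of -2.07 (SE 0.036, adjusted p = 6.35e-10). ITGA7 (UNQ406/PRO768), a laminin receptor chain best known from muscle, stood at 39.1, 40.4 and 37.8 FPKM in the HMC cultures and 0.148, 0.130 and 0.128 FPKM in the DPC cultures. The DPC values rest on 6 to 7 recovered reads per library, and the log2 difference was -5.14 (SE 0.066, adjusted p = 1.60e-10).

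The 4 alpha chains that bind collagen were divided between the cell types. ITGA2, the collagen receptor chain of keratinocytes and platelets, stood at 91.6, 98.4 and 88.8 FPKM in the HMC cultures and 1.04, 1.02 and 1.45 FPKM in the DPC cultures, a log2 difference of -5.44 (SE 0.089, adjusted p = 4.91e-10). ITGA1, the collagen receptor chain of fibroblasts and smooth muscle, went the other way, at 56.8, 56.7 and 50.1 FPKM in the DPC cultures and 3.09, 2.70 and 3.10 FPKM in the HMC cultures. Neither gene overlapped between the groups, and the ratio of ITGA1 to ITGA2 lay between 34.5 and 55.4 in DPC cultures and between 0.0274 and 0.0349 in HMC cultures. The log2 difference of ITGA1 was 3.81 (SE 0.076, adjusted p = 1.35e-09). ITGA11 (MSTP018), a fibroblast receptor for fibrillar collagen, was lower in level but also higher in DPC, at 4.14 ± 0.407 FPKM against 0.293 ± 0.0390 FPKM in HMC (SD, n = 3 each), with a difference of 1.99 on the log2 scale (adjusted p = 1.87e-07). ITGA10 (UNQ468/PRO827), a collagen receptor chain known from cartilage, stood at 1.16 FPKM in DPC against 1.26 FPKM in HMC, and its values overlapped (log2 difference -0.07, adjusted p = 0.495). The sign of this difference turned after median-of-ratios scaling and quantile normalization.

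Alpha chains for fibronectin and other RGD ligands were found in both cell types. ITGA5 (FNRA), the alpha chain of the classical fibronectin receptor, was the most abundant alpha chain of DPC, at 189, 189 and 196 FPKM in the DPC cultures and 27.9, 27.8 and 27.6 FPKM in the HMC cultures. All 3 DPC cultures lay above all HMC cultures by a factor of 6.89 between the means, with a log2 difference of 2.74 (SE 0.039, adjusted p = 2.45e-10). ITGAV, which pairs with several beta chains to bind vitronectin, fibronectin, osteopontin and latent TGF-beta, stood at 161, 149 and 129 FPKM in the HMC cultures and 90.0, 82.9 and 80.2 FPKM in the DPC cultures. It was higher in HMC without overlap, and HMC replicate 3 was the nearest to the DPC cultures (log2 difference -0.78, SE 0.083, adjusted p = 4.14e-05). ITGA2B (GP2B), the platelet fibrinogen receptor chain, was low in each cell type, at 2.86 FPKM in DPC against 3.88 FPKM in HMC. Its log2 difference of -0.34 had an adjusted p of 0.0112, and it did not pass after median-of-ratios scaling (-0.22, adjusted p = 0.0708) or quantile normalization (-0.20, adjusted p = 0.0927). ITGA4 (CD49D), which binds fibronectin and the adhesion molecule VCAM1, stood at 11.9, 11.9 and 11.1 FPKM in the DPC cultures and 0.0550, 0.0217 and 0.0323 FPKM in the HMC cultures. The HMC values rest on 2 to 5 recovered reads per library, and the log2 difference was 3.61 (SE 0.075, adjusted p = 1.70e-09). ITGA9, its closest relative among the alpha chains, was below the filter, at 0.675, 0.396 and 0.794 FPKM in the DPC cultures and 0.0365, 0.0120 and 0.0596 FPKM in the HMC cultures, and its values did not overlap.

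**Figure D2:**
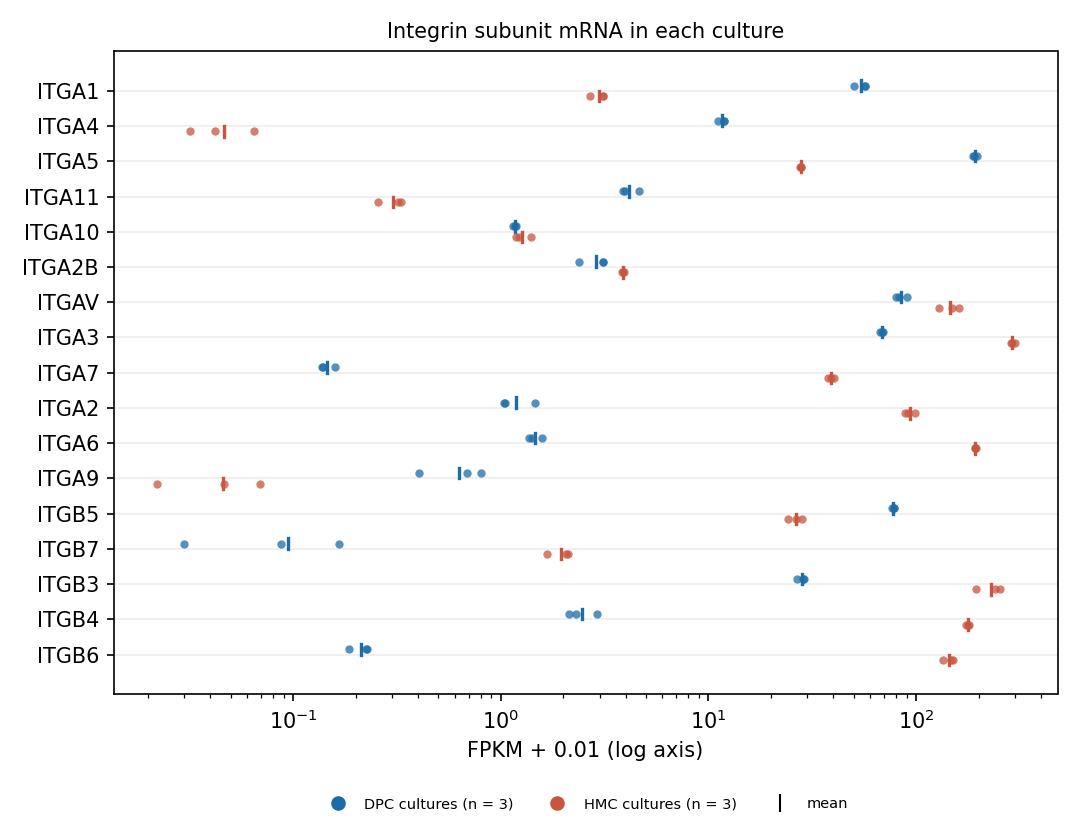
FPKM of the 17 integrin chains in each culture, with 0.01 added and a log axis; each point is 1 culture and each short line the mean of 3. ITGA6, ITGA2, ITGA7, ITGB4 and ITGB6 lie far to the right in HMC, ITGA1, ITGA4, ITGA5 and ITGA11 in DPC, and the points of ITGA10 overlap.

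The makeup of the alpha chain mRNA can be given as shares of the summed FPKM of the 12 alpha chains, which came to 418 to 426 FPKM in DPC against 771 to 819 FPKM in HMC. ITGA5 held 44.4 to 46.9% of the sum in DPC and 3.41 to 3.58% in HMC. ITGA3 held 15.8 to 16.5% in DPC and 35.9 to 37.1% in HMC, and ITGA6 held 0.327 to 0.373% in DPC and 23.6 to 25.1% in HMC. By known ligand, ITGA3, ITGA6 and ITGA7 together took 16.1 to 16.9% of the sum in DPC and 64.7 to 67.1% in HMC. The RGD-binding chains ITGA5, ITGAV and ITGA2B took 65.2 to 66.8% in DPC and 20.8 to 23.5% in HMC. The collagen-binding chains took 13.5 to 15.1% in DPC and 11.8 to 12.7% in HMC, although ITGA1 made up most of that share in DPC and ITGA2 in HMC. ITGAV held 19.2 to 21.1% in DPC and 16.7 to 19.6% in HMC, so the ranges overlapped.

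**Figure D3:**
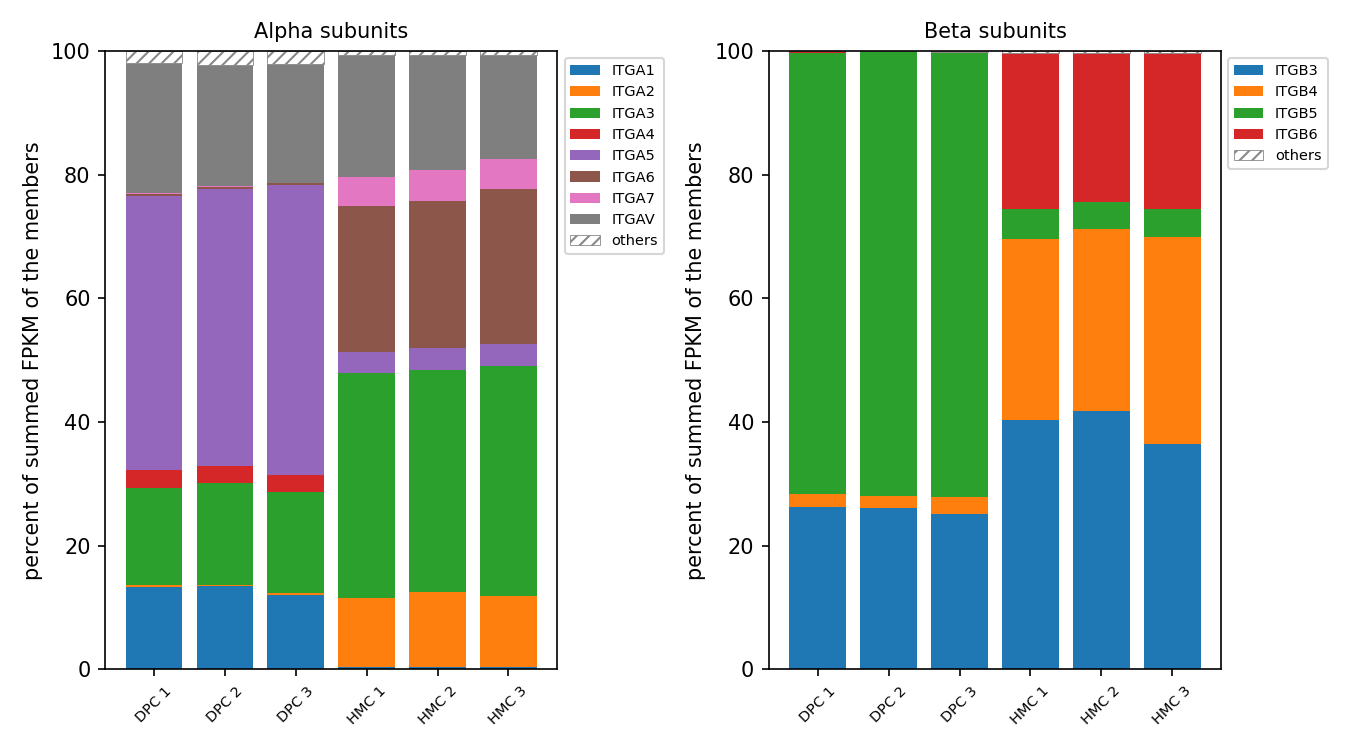
Shares of the summed FPKM of the integrin alpha chains (left) and beta chains (right) among the members, in percent, for each culture; hatched parts pool the chains under 2% in every culture. ITGA5 and ITGB5 hold the largest shares in DPC, and ITGA3, ITGA6, ITGB3, ITGB4 and ITGB6 hold most of the sum in HMC.

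All 5 beta chains among the members passed the test, 4 higher in HMC and 1 in DPC, where 75.9% of all tested genes passed. The beta 1 chain, the partner of most alpha chains above, is not analysed here, so shares of beta chains refer to the other chains alone. ITGB6, which pairs with ITGAV in epithelia and activates latent TGF-beta, stood at 151, 147 and 135 FPKM in the HMC cultures and 0.214, 0.218 and 0.176 FPKM in the DPC cultures. The DPC values rest on 9 to 11 recovered reads per library, and the log2 difference was -6.91 (SE 0.065, adjusted p = 5.32e-11). ITGB4 (Itgb4), the beta chain of the hemidesmosome integrin, stood at 175, 179 and 179 FPKM in the HMC cultures and 2.30, 2.11 and 2.90 FPKM in the DPC cultures. In HMC it lay close to its partner ITGA6, with an ITGA6 to ITGB4 ratio between 1.08 and 1.11, and in DPC, where both were low, the ratio was between 0.470 and 0.743. The log2 difference of ITGB4 was -5.70 (SE 0.084, adjusted p = 2.88e-10).

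ITGB3 (GP3A), a vitronectin receptor chain that pairs with ITGAV, was the most abundant beta chain of the members in HMC, at 241, 255 and 195 FPKM in the HMC cultures and 28.7, 28.7 and 26.8 FPKM in the DPC cultures. HMC replicate 3 was the lowest of its group and still far above DPC (log2 difference -2.98, SE 0.093, adjusted p = 1.79e-08). ITGB5, another vitronectin receptor chain that pairs with ITGAV, was the beta chain higher in DPC, at 77.8, 78.7 and 76.5 FPKM in the DPC cultures and 28.3, 26.4 and 24.1 FPKM in the HMC cultures. The groups did not overlap, and the log2 difference was 1.53 (SE 0.062, adjusted p = 8.82e-08). ITGB5 made up 71.3 to 71.8% of the summed beta chains in DPC and 4.34 to 4.75% in HMC, and the ratio of ITGB3 to ITGB5 was 0.351 to 0.368 in DPC and 8.10 to 9.64 in HMC. ITGB7, a leukocyte chain that pairs with ITGA4, was low, at 0.0850 FPKM in DPC against 1.94 FPKM in HMC, and was thus higher in the cell type in which ITGA4 was near 0 (log2 difference -1.44, adjusted p = 3.42e-06). ITGB8, which lacks the pathway label and is not a member, is a further partner of ITGAV that activates latent TGF-beta and stood at 0.437 ± 0.0914 FPKM (SD, n = 3) in DPC and 16.2 ± 0.901 FPKM (SD, n = 3) in HMC. The summed FPKM of ITGB3, ITGB5, ITGB6 and ITGB8 was 104 to 108 in DPC against 369 to 445 in HMC.

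All 3 laminin chains among the members passed the test, as did 75.9% of all tested genes. Values are given for LAMB3 and the row written Lamb2. LAMB3 (LAMNB1) is the beta chain of the epidermal laminin that hemidesmosomes hold on to. LAMB3 stood at 303, 292 and 265 FPKM in the HMC cultures and 1.89, 1.93 and 2.34 FPKM in the DPC cultures. HMC replicate 3 was the lowest HMC culture and DPC replicate 3 the highest DPC culture, and the groups did not overlap. The log2 difference was -6.56 (SE 0.077, adjusted p = 1.13e-10). The row Lamb2, by its symbol the laminin beta 2 chain of basement membranes in vessels, kidney and nerve, was higher in DPC, at 24.7, 23.1 and 23.4 FPKM in the DPC cultures and 12.2, 12.5 and 10.9 FPKM in the HMC cultures, with a log2 difference of 0.95 (SE 0.066, adjusted p = 2.90e-06). Its annotation in the table names the basement membrane and no chain.

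LAMB3 belongs to a list of 9 hemidesmosome genes, of which 8 were higher in HMC, 6 of them at least 2-fold, and 0 in DPC. Over all tested genes 46.2% were higher in HMC, and 16.1% were so at least 2-fold. Besides the members ITGA6, ITGB4 and LAMB3 it holds LAMA3 (LAMNA), which stood at 2.38 ± 0.231 FPKM (SD, n = 3) in DPC and 179 ± 6.55 FPKM (SD, n = 3) in HMC. COL17A1 (BP180), the transmembrane collagen of the hemidesmosome, stood at 0.689 ± 0.158 FPKM (SD, n = 3) in DPC and 15.2 ± 0.890 FPKM (SD, n = 3) in HMC. The tetraspanin CD151 and the plakin DST (BP230) had log2 differences of -0.93 and -0.39. Plectin (PLEC, Plec1), a plakin that links integrins to keratins and is also found outside hemidesmosomes, stood at 88.5 ± 0.744 FPKM (SD, n = 3) in DPC and 91.6 ± 1.65 FPKM (SD, n = 3) in HMC and did not pass, although its groups did not overlap (log2 difference -0.05, adjusted p = 0.263).

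**Figure D4:**
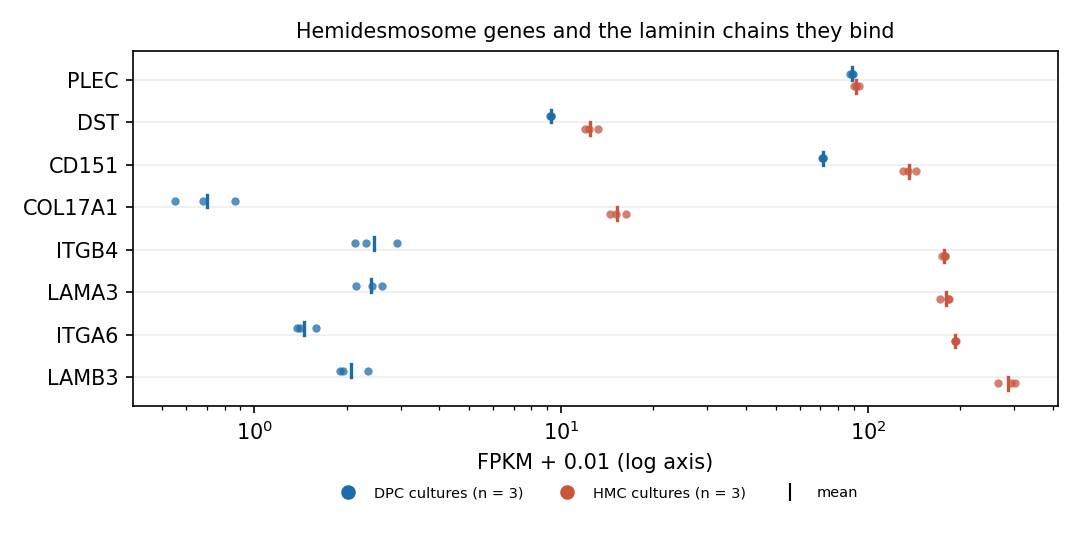
FPKM of 8 hemidesmosome genes in each culture, with 0.01 added and a log axis; points are cultures and short lines means of 3. LAMB3, ITGA6, LAMA3 and ITGB4 differ the most of those shown and lie between 172 and 303 FPKM in HMC, while PLEC lies between 87.8 and 93.3 FPKM in all 6 cultures.

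Of 6 other ligands that were tested, 3 were higher in DPC and 3 in HMC, against 29.7% and 46.2% of all tested genes. Osteopontin (SPP1, OPN), a secreted RGD protein bound by ITGAV integrins and CD44, had the largest difference of the members on the log2(FPKM + 1) scale, while its ratio of means, 188, was below that of ITGB6, 710.3. It stood at 1573, 1524 and 1415 FPKM in the HMC cultures and 8.10, 7.75 and 8.12 FPKM in the DPC cultures, a log2 difference of -7.39 (SE 0.049, adjusted p = 3.01e-11). In HMC this approached the level of fibronectin, with an SPP1 to FN1 ratio between 0.946 and 0.964, against 0.00591 to 0.00647 in DPC. AGRN (Agrin), a heparan sulfate proteoglycan of basement membranes that binds dystroglycan and laminin, stood at 82.0, 79.9 and 73.8 FPKM in the HMC cultures and 0.754, 1.203 and 1.08 FPKM in the DPC cultures. No DPC culture came near the HMC cultures, and the log2 difference was -5.31 (SE 0.095, adjusted p = 7.33e-10).

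TNC (HXB), a matricellular glycoprotein of developing and healing dermis that modulates adhesion to fibronectin, was the most abundant member in DPC, at 2451, 2506 and 2459 FPKM in the DPC cultures and 90.9, 98.1 and 109 FPKM in the HMC cultures. The log2 difference was 4.63 (SE 0.062, adjusted p = 1.88e-10), and HMC replicate 3 was the highest of the HMC cultures. THBS2 (TSP-2), an inhibitor of angiogenesis that is bound by CD36 and CD47, stood at 369, 381 and 361 FPKM in the DPC cultures and 6.41, 7.09 and 7.96 FPKM in the HMC cultures. It too was highest in replicate 3 among HMC cultures, with a log2 difference of 5.51 (SE 0.070, adjusted p = 1.60e-10). THBS3 (TSP3), a thrombospondin without the antiangiogenic repeats, was low, at 2.66 ± 0.0417 FPKM in DPC against 0.590 ± 0.242 FPKM in HMC (SD over 3 cultures each; log2 difference 1.21, adjusted p = 3.00e-05).

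FN1, the main ligand of ITGA5, was the most abundant member over all cultures, at 1253, 1312 and 1261 FPKM in the DPC cultures and 1633, 1611 and 1469.8 FPKM in the HMC cultures. The groups did not overlap, but the log2 difference of -0.30 (SE 0.044, adjusted p = 0.000307) was smaller in size than those of the receptor chains ITGA5 and ITGAV, and quantile normalization left it short of the threshold (-0.08, adjusted p = 0.205). The 13 ligands other than laminins and collagens summed to 4084 to 4211 FPKM in DPC against 3077 to 3387 FPKM in HMC. TNC held 59.5 to 60.1% of this sum in DPC and 2.68 to 3.56% in HMC, SPP1 held 0.184 to 0.198% in DPC and 45.9 to 46.5% in HMC, and FN1 held 30.7 to 31.2% and 47.8 to 48.5%.

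**Figure D5:**
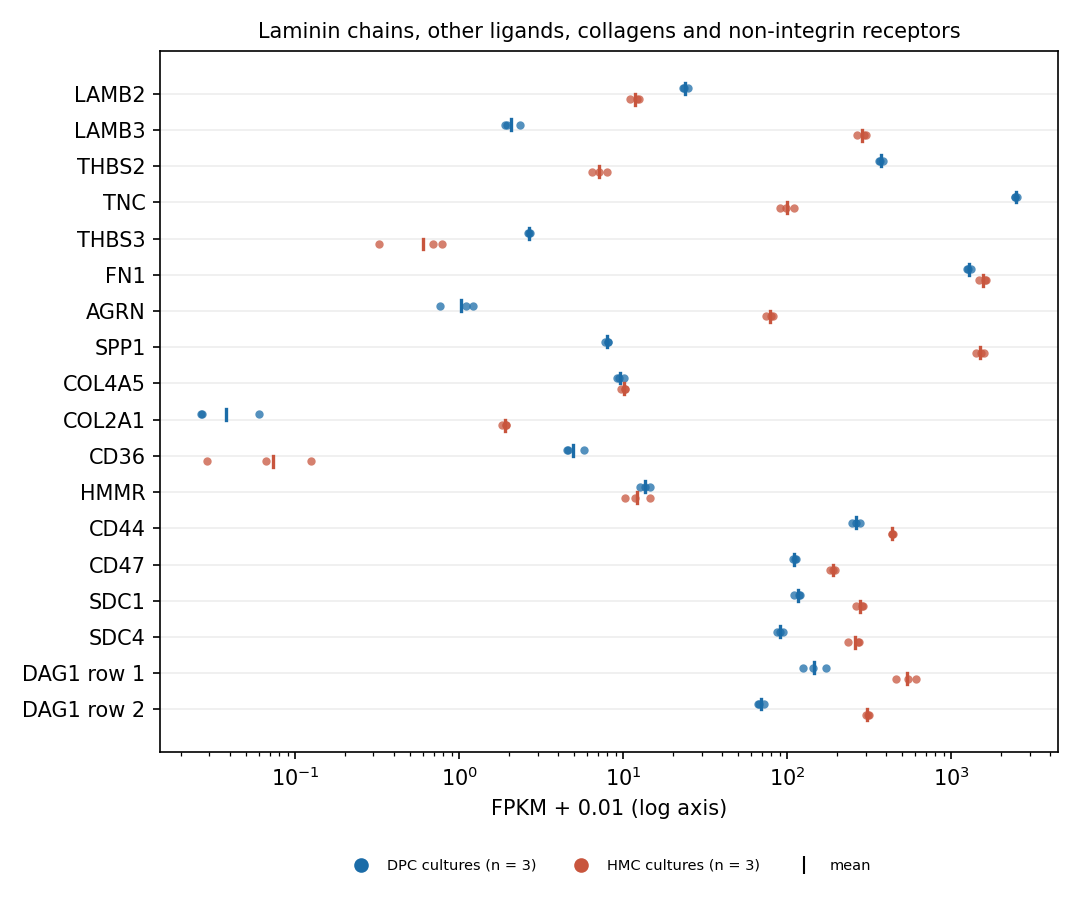
FPKM of LAMB2 (Lamb2), LAMB3 and the tested other ligands, collagens and non-integrin receptors in each culture, with 0.01 added and a log axis; points are cultures and short lines means of 3. SPP1, AGRN and LAMB3 stand apart toward HMC, TNC, THBS2 and CD36 toward DPC, and the points of COL4A5 and HMMR overlap.

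Of 8 rows of non-integrin receptors that were tested, 6 were higher in HMC, 1 in DPC and 1 did not pass. The background was 46.2% higher in HMC and 29.7% in DPC. Dystroglycan (DAG1), the receptor that links laminin and agrin to the cytoskeleton, has 2 rows with separate identifiers. The row with the higher FPKM stood at 606, 542 and 463 FPKM in the HMC cultures and 172, 125 and 143 FPKM in the DPC cultures, and the other at 309, 302 and 314 FPKM in the HMC cultures and 72.3, 66.6 and 67.3 FPKM in the DPC cultures. Both rows were higher in HMC without overlap, with log2 differences of -1.87 and -2.15 (SE 0.13 and 0.043, adjusted p = 2.49e-06 and 1.37e-09). The first rests on 258 to 363 recovered reads per library in DPC and 1027 to 1314 in HMC, the second on 1832 to 2032 and 8820 to 9241. The ratio between the rows ranged from 1.48 to 2.37 over the 6 cultures, so they did not move in step, and how the authors' counter divided reads between them is not given in the labels.

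CD44 (Ly-24), the hyaluronan receptor, was the most abundant non-integrin receptor row over all cultures, at 248, 278 and 264 FPKM in the DPC cultures and 432, 434 and 438 FPKM in the HMC cultures. It differed without overlap, by -0.72 on the log2 scale (SE 0.044, adjusted p = 1.15e-06). The syndecans are transmembrane heparan sulfate proteoglycans that act with integrins as co-receptors. SDC4, a partner of ITGA5 integrin in focal adhesions, stood at 90.3 ± 3.38 FPKM in DPC against 259 ± 21.9 FPKM in HMC, and SDC1, the main syndecan of epithelia, at 116 ± 4.91 and 279 ± 14.7 FPKM (SD, n = 3 each). Their log2 differences were -1.51 and -1.26. SDC2, a syndecan of mesenchyme that lacks the pathway label and is not a member, went the other way, at 235 ± 1.85 FPKM (SD, n = 3) in DPC and 8.05 ± 1.24 FPKM (SD, n = 3) in HMC (log2 difference 4.71, adjusted p = 1.20e-09).

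The thrombospondin receptors CD36 and CD47 differed in direction. CD36 (PAS4), which also takes up fatty acids, stood at 4.60, 4.50 and 5.75 FPKM in the DPC cultures and 0.115, 0.0189 and 0.0562 FPKM in the HMC cultures. It was the only tested non-integrin receptor that passed as higher in DPC (log2 difference 2.48, SE 0.11, adjusted p = 1.20e-07), and its HMC values rest on 1 to 6 recovered reads per library. CD47, which also protects cells from phagocytes, stood at 111 ± 2.45 FPKM in DPC against 190.2 ± 7.15 FPKM in HMC (SD over 3 cultures each; log2 difference -0.78, adjusted p = 5.17e-07). HMMR (IHABP), a hyaluronan-binding protein of the mitotic spindle, stood at 14.4, 13.5 and 12.7 FPKM in the DPC cultures and 10.3, 11.7 and 14.6 FPKM in the HMC cultures. Its HMC values spread around the DPC values, with replicate 3 the highest, and it did not pass (log2 difference 0.15, adjusted p = 0.261). It passed as higher in DPC after median-of-ratios scaling (0.30, adjusted p = 0.0372), after quantile normalization (0.35, adjusted p = 0.0205) and without HMC replicate 3 (0.28, adjusted p = 0.0232).

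Among the 5 collagen chains 2 were tested. COL4A5, a basement membrane chain, stood at 9.20, 10.1 and 9.39 FPKM in the DPC cultures and 10.2, 10.3 and 9.66 FPKM in the HMC cultures. The groups overlapped and the gene did not pass (log2 difference -0.06, adjusted p = 0.413), and its sign too turned under both rescalings. COL2A1, the main fibrillar collagen of cartilage, was low in HMC and near 0 in DPC, at 1.91, 1.92 and 1.82 FPKM in the HMC cultures and 0.0166, 0.0170 and 0.0503 FPKM in the DPC cultures (log2 difference -1.49, adjusted p = 6.50e-07). Its HMC values rest on 115 to 120 recovered reads per library and its DPC values on 1 to 3.

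The 16 rows below the filter did not exceed 0.796 FPKM in any culture. CHAD, a cartilage leucine-rich protein, reached that value, and ITGA9 reached 0.794 FPKM. The collagen IX chains COL9A1, COL9A2 and COL9A3 reached 0.145, 0.346 and 0.0397 FPKM. The platelet receptor chains GP5 and GP1BA reached 0.313 and 0.0334 FPKM, and the synaptic vesicle proteins SV2A, SV2B (KIAA0735) and SV2C (KIAA1054) reached 0.184, 0.0177 and 0.123 FPKM. Among ligands, COMP, RELN, FRAS1 (KIAA1500), DMP1, FREM1 and TNN (Tnn) reached 0.127, 0.0762, 0.0297, 0.0226, 0.0220 and 0.0144 FPKM. When all rows of the table were fitted without a filter, ITGA9 and SV2C passed as higher in DPC and COL9A1 as higher in HMC. In that fit 9851 of all 15646 rows passed. The log2 differences were 0.64, 0.15 and -0.14. They rest on 148, 13 and 0 recovered reads summed over the DPC cultures and 9, 0 and 17 over the HMC cultures.

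Several members are also made by cells other than the labelled types, and the markers of these cells were checked in the same libraries. All 6 endothelial markers stayed under 1 FPKM in every culture, and their sum was 0.201 to 0.266 FPKM in DPC against 0.0883 to 0.253 FPKM in HMC. The 3 muscle markers found of 4 listed also stayed under 1 FPKM, with a sum of 0 to 0.270 FPKM in DPC against 0 to 0.140 FPKM in HMC, beside ITGA7 at 39.1 FPKM in HMC. Of 5 haematopoietic markers 4 were found, with a sum of 11.9 to 12.3 FPKM in DPC against 13.4 to 18.8 FPKM in HMC. CSF1R, a receptor of macrophages, stood at 0.0185 FPKM or less, but the other markers found were not near 0. LAPTM5 was higher in DPC, at 9.25 to 9.76 FPKM against 0.0980 to 0.431 FPKM in HMC. CD14 and AIF1 were higher in HMC, at 8.14 to 11.9 and 4.81 to 7.87 FPKM, against 2.10 to 2.91 and 0 to 0.0770 FPKM in DPC. The part of haematopoietic cells in the values of ITGA4, ITGB7 and CD36 was not tested. Of 4 Schwann markers 2 were found, with a sum of 5.90 to 8.96 FPKM in DPC against 5.17 to 5.99 FPKM in HMC. They differed in direction. SOX10 was at 0 in the DPC cultures and at 1.14 to 1.92 FPKM in the HMC cultures. S100B was higher in DPC, at 5.90 to 8.96 FPKM against 3.25 to 4.85 FPKM in HMC. Of 5 melanocyte markers 2 were found, with a sum of 2.68 to 3.43 FPKM in DPC against 3.49 to 5.25 FPKM in HMC, nearly all of it PMEL. The 4 pericyte markers summed to 53.5 to 56.6 FPKM in DPC, where PDGFRB took 43.3 to 46.0 FPKM, and to 16.7 to 19.0 FPKM in HMC. PDGFRB and CSPG4 were higher in DPC, and RGS5 stayed at or below 0.346 FPKM. NOTCH3 went the other way, at 14.2 to 16.2 FPKM in HMC against 4.45 to 4.60 FPKM in DPC. The 6 epithelial markers summed to 57.6 to 75.4 FPKM in DPC against 9793 to 10210.5 FPKM in HMC, and the 6 mesenchymal markers to 510.4 to 616 FPKM in HMC and 15725 to 16351 FPKM in DPC. The part of these markers' cells in low values such as ITGA6 in DPC or THBS2 in HMC was not tested.

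Cultures of a group lay close together for most members. Among the members with a group mean of at least 5 FPKM, the coefficient of variation had a median of 3.78% in DPC, over 20 rows, and 5.54% in HMC, over 26 rows. The extremes were TNC at 1.204% and the higher DAG1 row at 16.2% in DPC, and ITGA6 at 0.292% and HMMR at 17.9% in HMC. HMC replicate 3 was the lowest HMC culture for 15 of the 22 members that were higher in HMC, or 68.2%, against 40.4% of all 5489 genes higher in HMC. Among these were ITGAV, ITGB3, ITGB6, LAMB3, SPP1, AGRN, SDC1, SDC4 and FN1, while ITGA6, CD44 and CD47 were highest in that culture.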

How the data were processed

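The authors deposited a table of FPKM per gene for the 6 stranded mRNA libraries, made from total RNA with the TruSeq Stranded mRNA kit per the labels' protocols. Trimmomatic, HISAT2 2.2.1.0 and DESeq 1.20.0 are named in the submitters' processing notes, while counter, genome build and annotation were not given in the sources used here. After scaling for depth, the FPKM of a gene stood in ratios of whole numbers for 100% of genes at a tolerance of 1e-09. The smallest such numbers were taken as recovered reads, for depth and for a voom fit. A factor shared by all libraries of a gene is lost, so recovered reads are lower bounds. Genes averaging 0.5 FPKM or more were tested on log2(FPKM + 1) with limma 3.58.1 in R 4.3.3, two-sided, with trended prior variance and Benjamini-Hochberg adjustment over all 11883 genes. Summaries and figures used Python 3.11.15, numpy 2.4.6, pandas 2.3.3 and matplotlib 3.10.9, and the fit was tested on simulated data. Shares and ratios are given as ranges over cultures and were not tested.

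The genes, the lists of hemidesmosome, adhesion and marker genes and the settings were chosen with earlier results of these data known. Every tested gene is named with its level, except for items that are not reported here. All 6 values are given for, in each class, the most abundant gene and up to 3 with the largest absolute difference, and for others a result turns on. Older symbols were matched by hand, ITGA11 without an annotation term to check it by. A separate row written Lamb-2 is among those left out for its annotation. Alternatives were a pseudocount of 0.1, no filter, a filter at 5 FPKM, median-of-ratios scaling, quantile normalization, no trend, a replicate block, voom and each culture left out.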

Additional observations from a re-analysis of the deposited data

How the results depend on the processing

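Of the 35 tested rows of the set, DAG1 counted with both of its rows, 30 kept their direction and their side of the threshold in all 14 alternative settings. The other 5 were COL4A5, ITGA10, ITGA2B, HMMR and FN1. The sign of COL4A5 turned after median-of-ratios scaling (0.0840) and quantile normalization (0.10), and that of ITGA10 likewise (0.0220 and 0.0639), though neither gene passed in any setting. The size of differences moved more: with a pseudocount of 0.1 those of 7 genes, and with voom those of 8, moved by over 1.5 times. These were ITGA4 (3.61 to 6.44 and 8.20), CD36 (2.48 to 4.98 and 6.32), COL2A1 (-1.49 to -3.97 and -5.83), ITGB7 (-1.44 to -3.52 and -4.67), ITGA11 (1.99 to 3.43 and 3.79), THBS3 (1.21 to 2.07 and 2.26) and ITGA10 (-0.07 to -0.11 and -0.12), and with voom also ITGA7 (-5.14 to -8.07). Quantile normalization moved 8 by as much, among them ITGAV (-0.49), CD44 (-0.45) and CD47 (-0.50). The counts of rows of the set higher in DPC ranged from 7 with a filter at 5 FPKM, which tests fewer genes, to 12 without a filter. Counts of rows higher in HMC ranged from 19 to 23. The count of non-integrin receptors higher in DPC was 2 without a filter, 0 with the filter at 5 FPKM, 2 after median-of-ratios scaling and 2 after quantile normalization, and between 1 and 2 when each culture was left out, with 2 without HMC replicate 3. The count of all genes at least 2-fold higher in DPC was 816 of 8699 tested with the filter at 5 FPKM, against 1306 of 11883 in the main fit. The median log2 difference of all genes was -0.15, -0.01 after median-of-ratios scaling and 0.05 after quantile normalization, so small differences such as that of FN1 depend on the scaling.

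Whether the replicate numbers pair the cultures cannot be decided from 3 cultures per group. The deviations of same-numbered cultures from their group means correlated at 0.0230, 0.0337 and 0.00640, all near 0. DPC replicates 1 and 2 correlated best with the HMC culture of the same number, and DPC replicate 3 with HMC replicate 2 (0.0068). With the replicate number as a block, 10 rows of the set passed toward DPC and 22 toward HMC, and of all genes 3473 and 5451. Depth limits the genes with few reads, such as ITGA4 and CD36 in HMC and ITGB6 and ITGA7 in DPC. Their low values rest on 31 recovered reads or fewer per group.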

Other observations

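The cytoplasmic partners of matrix receptors, which tie integrins to actin and pass on their signals, lack the pathway label of the genes above. Of a list of 24 such genes 23 were found and 22 tested, and 11 were higher in DPC and 11 in HMC, where 29.7% and 46.2% of all tested genes passed. At least 2-fold differences were found for 10 of them, 6 toward DPC and 4 toward HMC, against 27.1% of all tested genes. The median log2 difference was 0.02, against -0.15 over all tested genes. TNS1 (TNS), which links beta chains to actin, stood at 41.8 ± 0.566 FPKM in DPC against 0.865 ± 0.0630 FPKM in HMC (SD, n = 3 each), a log2 difference of 4.52. KANK2 (ANKRD25), an adaptor at the rim of focal adhesions, had a difference of 3.04 and vinculin (VCL), which reinforces the link under tension, one of 1.95.

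Several families were divided between the cell types. Of the kindlins, which activate integrins, FERMT2 (KIND2) was higher in DPC, at 181 ± 3.10 against 47.2 ± 0.262 FPKM, and FERMT1 (C20orf42), the form known from epithelia, in HMC, at 19.0 ± 0.343 against 7.70 ± 0.506 FPKM. Of the PINCH adaptors, LIMS2 (PINCH2) was higher in DPC (log2 difference 1.45) and LIMS1 (PINCH) in HMC (-1.16). The actinins ACTN1 and ACTN4, which cross-link actin, differed by 0.41 and -0.54, and the cross-linker FLNA (FLN) by 0.96. PXN and SRC (SRC1), an adaptor and a kinase of focal adhesions, were higher in HMC, with differences of -1.98 and -1.77, while the kinase PTK2 (Fak) differed by -0.49. PARVB (CGI-56), a partner of the kinase ILK, had a difference of 1.94 toward DPC.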
